A study of Mus musculus with 7 samples.

Results

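The regions described here are places in the mouse genome where JUNB was called in both libraries of siChst7-treated cells and in neither library of siControl-treated cells. They were found by joining JUNB peaks of 4 deposited lists that overlapped by at least 1 bp and by keeping regions with a peak in both siChst7 lists and in neither siControl list. This left 491 siChst7-only regions among 12655 joined regions, or 3.88%. The siControl-only regions, defined the other way round, numbered 203 (1.6%), and 2785 regions (22.0%) were in all 4 lists and are called common below. Membership rests on peak calls alone, so the presence of these regions in siChst7 cells is the choice itself and was not tested.

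The libraries came from iMGT-Myh6-eGFP-MEF, a mouse embryonic fibroblast line in which doxycycline induces Mef2c, Gata4 and Tbx5 and in which a Myh6-eGFP reporter marks cells on the way to cardiomyocytes. All cells were transfected with siRNA the day before doxycycline was added, were collected at day 1 of induction and were frozen before use. The groups were siChst7, an siRNA named for a chondroitin sulfotransferase gene, and siControl, with 2 JUNB CUT&RUN libraries each. CUT&RUN cuts DNA next to an antibody-bound protein, and the sequenced fragments pile up where the protein sat. The treatment text in the labels lists siJunb and siH1f0 in place of siChst7, and the grouping here follows the titles and the treatment given for each sample. All libraries came from this 1 line, and the labels call the replicates biological without saying whether they were grown apart. The level of Chst7 was not measured in these files, and the 3 IgG libraries were not analysed here.

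JUNB is a basic leucine zipper protein of the JUN family. It binds DNA as a dimer, usually with a FOS protein, and these AP-1 dimers prefer the 7-base site TGANTCA. In fibroblasts AP-1 is known to occupy many enhancers, including those of matrix, cytoskeletal and injury response genes, and it is switched by MAP kinase, growth factor and stress signals.

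Sequence was at hand for gene starts only, in RefSeq promoter windows of GRCm38.p6 (the assembly also called mm10) that run from 250 bases before a start to 50 after it. The windows covered 17492 of 21900 protein-coding genes. Of the 491 siChst7-only regions, 27 (5.5%) touched at least 1 of 33 such windows, which belonged to 31 genes. The 250 bases before 6 of these starts follow, 5′ to 3′ on the strand of the gene, with matches to TGANTCA or to TGACGTCA, the related CRE site, in capitals. They are the starts under the best-ranked of these regions (H3f3b), under a contractile gene (Cald1) and under an AP-1 partner (Mafk), and 3 starts with a match (Rtkn, Ezr and Tyw1). They lie at chr11:116024505-116024754 (minus strand), chr6:34598254-34598503 (plus), chr5:139791286-139791535 (plus), chr6:83136834-83137083 (plus), chr17:6782781-6783030 (minus) and chr5:130255369-130255618 (plus).
H3f3b: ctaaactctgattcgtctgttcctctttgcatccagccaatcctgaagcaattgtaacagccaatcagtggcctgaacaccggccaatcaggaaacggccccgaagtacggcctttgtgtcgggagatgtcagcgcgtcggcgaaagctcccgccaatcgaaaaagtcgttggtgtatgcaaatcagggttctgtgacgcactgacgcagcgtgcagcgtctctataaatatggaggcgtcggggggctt
Cald1: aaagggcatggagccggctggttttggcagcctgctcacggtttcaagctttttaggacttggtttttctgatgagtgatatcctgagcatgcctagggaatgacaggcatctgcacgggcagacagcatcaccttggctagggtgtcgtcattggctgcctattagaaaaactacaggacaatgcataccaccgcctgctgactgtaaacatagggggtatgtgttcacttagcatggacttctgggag
Mafk: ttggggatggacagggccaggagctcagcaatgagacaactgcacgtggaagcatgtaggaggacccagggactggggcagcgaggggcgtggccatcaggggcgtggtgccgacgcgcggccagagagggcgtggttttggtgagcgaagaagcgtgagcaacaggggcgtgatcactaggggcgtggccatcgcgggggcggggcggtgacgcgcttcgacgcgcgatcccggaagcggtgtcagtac
Rtkn: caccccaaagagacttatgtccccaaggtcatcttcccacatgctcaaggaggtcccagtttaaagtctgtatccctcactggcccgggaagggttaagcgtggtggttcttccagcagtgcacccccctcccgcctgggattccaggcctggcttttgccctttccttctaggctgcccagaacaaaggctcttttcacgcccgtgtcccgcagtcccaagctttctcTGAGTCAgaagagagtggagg
Ezr: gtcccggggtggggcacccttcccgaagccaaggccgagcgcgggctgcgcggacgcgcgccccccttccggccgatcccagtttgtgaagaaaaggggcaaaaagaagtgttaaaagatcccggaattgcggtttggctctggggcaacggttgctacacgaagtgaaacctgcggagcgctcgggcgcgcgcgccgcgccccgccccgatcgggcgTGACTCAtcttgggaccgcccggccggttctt
Tyw1: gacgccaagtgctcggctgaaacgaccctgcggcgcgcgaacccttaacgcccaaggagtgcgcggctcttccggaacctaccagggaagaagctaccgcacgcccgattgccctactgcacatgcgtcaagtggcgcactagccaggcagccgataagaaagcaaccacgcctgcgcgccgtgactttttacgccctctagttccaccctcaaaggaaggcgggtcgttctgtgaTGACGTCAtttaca

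The AP-1 site had about the same share in promoters touched by siChst7-only regions as in all promoters. Its interval was so wide that it also held the share in promoters touched by common regions. TGANTCA was present in 2 of 33 windows (6.06%, exact Clopper-Pearson interval 0.743 to 20.2), against 1486 of all 21263 windows (6.99%). Windows touched by siControl-only regions held it in 5 of 18 (27.8%, interval 9.69 to 53.5), and windows touched by common regions in 39 of 201 (19.4%, interval 14.2 to 25.6). Intervals here and below cover counting error only. Both motifs read the same on either strand, and neither contains the other. The median GC content was 60.3% in siChst7-only windows, against 61.2% in siControl-only, 60.3% in common and 56.3% in all windows.

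The matches themselves sat close to the gene start. In Rtkn, which encodes rhotekin, an effector of small GTPases, TGAGTCA began 21 bases before the start and inside the region. In Ezr, which encodes the membrane-to-actin linker ezrin, TGACTCA began 32 bases before the start but outside the region, which covered only bases after the start. TGACGTCA was found in 3 of 33 windows (9.09%, exact interval 1.92 to 24.3), against 1 of 18 siControl-only windows (5.56%, 0.141 to 27.3), 12 of 201 common windows (5.97%, 3.12 to 10.2) and 475 of all 21263 (2.23%). The Tyw1 site began 14 bases before the start and lay inside its region. The other CRE matches were the same genomic site, seen in both of 2 overlapping windows of BC049762, and it lay outside the region. The windows with a match thus held 2 sites.

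Each region carries a fold enrichment over local background and a −log10 q, both given by the authors' peak caller for each peak. In the siChst7 replicate 1 list the regions had folds of 2.42 to 14.7 with a median of 6.35. In the siChst7 replicate 2 list they had 2.31 to 10.7 with a median of 5.68. Common regions had medians of 10.6 and 7.68 in the same lists. The median −log10 q was 6.23 in replicate 1 and 4.39 in replicate 2, against 17.5 and 9.1 for common regions. As the plot of fold in one siChst7 list against the other shows, the siChst7-only regions filled the low corner of the cloud of common regions. These values belong to the calls that chose the regions, so they describe them and support nothing further.

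**Figure D1:**
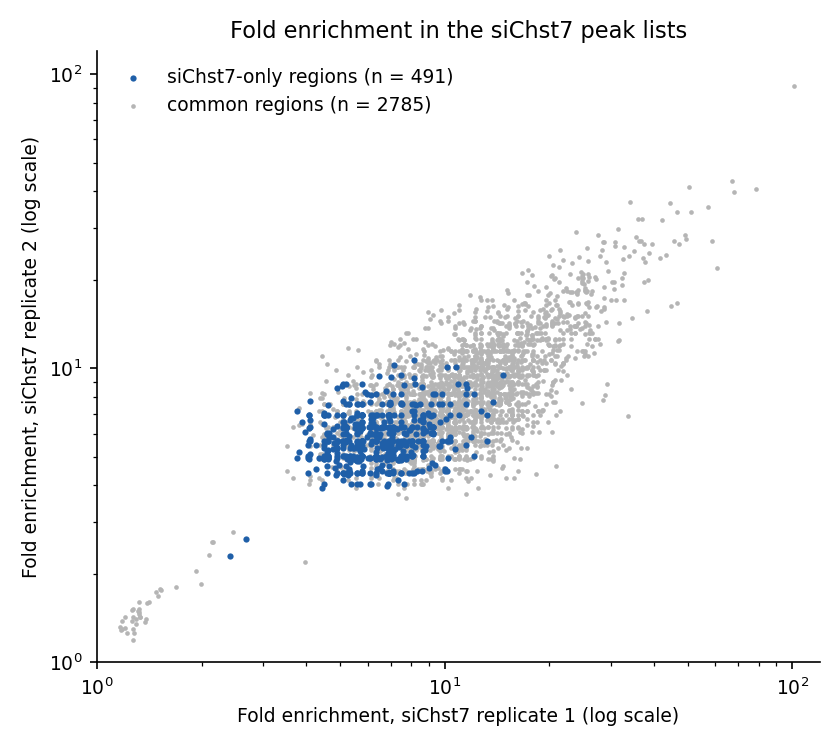
Fold enrichment of each region's best peak in the siChst7 replicate 1 list (x, log scale) and the siChst7 replicate 2 list (y, log scale), for 491 siChst7-only regions (blue) and 2785 common regions (grey). The siChst7-only regions reach 14.7 in replicate 1 and 10.7 in replicate 2, while common regions reach 101 and 91.

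By rank within each list, the regions came from the middle and lower part. Their median rank was 5632 of 10163 peaks in siChst7 replicate 1 and 3419 of 4735 peaks in siChst7 replicate 2, the longest and the shortest of the 4 lists. The siControl lists held 6469 and 5827 peaks. In siChst7 replicate 1, 307 of the 491 ranked beyond place 4735, the length of the shortest list. The other 184 (37.5%) remained siChst7-only when all lists were cut to that length. Fold was higher in replicate 1 for 307 of 491 regions and above 10 in both lists for 2, among them the region inside Galntl6. At the low end, a region 13.2 kb from Gpc4, a cell surface glypican gene, had folds of 2.68 and 2.64, and a region on the unplaced sequence JH584304 had 2.42 and 2.31. All other regions had folds of at least 3.75 and 3.93.

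Fold values repeated from region to region. Many fell on even steps, of 0.577 in siChst7 replicate 1 and 0.631 in replicate 2, against 0.644 and 0.621 in siControl replicates 1 and 2. Within 0.002 of a step, 34.0% of the siChst7-only regions lay on the replicate 1 grid and 39.1% on the replicate 2 grid, against 31.9% and 30.4% of all peaks in these lists. The commonest value was 5.77 in replicate 1, shared by 28 regions, and 5.68 in replicate 2, shared by 46. Equal folds were therefore common, and rank went by −log10 q, with fold used only to break ties.

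The median width lay between those of siControl-only and common regions. The siChst7-only regions spanned 211 to 1603 bp with a median of 515. The median was 411 for siControl-only, 925 for common and 454 for all regions. A width runs over all joined peaks of a region, and common regions join peaks of all 4 lists, so the classes are not alike in this. The 122 best-ranked of the regions had a median width of 634.5 bp and the 122 last 431.5. The widest had its nearest gene end at Ubash3b, 347.7 kb away (chromosome 9, 41508604 to 41510206, 1603 bp), and was followed by regions inside Dusp8 (1425 bp) and 210.8 kb from Spdye4c (1253 bp). Those in Lpp and near Fzd6 had 1227 bp each. The narrowest lay near Vmn1r60 (211 bp) and Dnase2b (225 bp) and inside Itgb5 (226 bp). The summits of the siChst7 peaks in a region were a median of 90 bp apart, and in 265 regions (54.0%) they were within 100 bp. In 4 regions a list had more than 1 peak.

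Some regions met the rule narrowly. The smallest overlaps between the siChst7 peaks were 15 bp near Cflar, 16 bp near Preb and 24 bp near Slc25a4, and 36 regions rested on an overlap under 100 bp. The lowest −log10 q was 2.06 in a region near Mpnd, then 2.08 near Usp54 and 2.1 near Mynn. A siControl peak lay only 2 bp away from a region 732.9 kb from Cited2, 3 bp from a region near Fst and 22 bp from a region near Mkx. In all, 50 of 491 had a siControl peak within 1 kb, and the median distance to one was 23.5 kb. Just outside the rule were 735 regions in both siChst7 lists and 1 siControl list, of which 13 met the siControl peak by less than 100 bp. The shortest contacts there were 29 bp near Ube2e2, 40 bp near Nupr1 and 44 bp near Ergic1.

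Most siChst7-only regions lay far from gene ends. Of 491, 52 (10.6%, exact Clopper-Pearson interval 8.01 to 13.7) had their midpoint no more than 1 kb from a protein-coding gene's start or end, against 12.8% (8.54 to 18.2) of siControl-only, 8.04% (7.06 to 9.12) of common and 12.1% of all regions. A further 106 lay 1 to 10 kb and 254 lay 10 to 100 kb out. The 78 beyond 100 kb made up 15.9% (12.8 to 19.4), against 11.3% (7.32 to 16.5) of siControl-only, 12.9% (11.7 to 14.2) of common and 12.7% of all regions. One region lay on a sequence without genes. The median distance was 25.1 kb, against 19.1 kb for siControl-only, 19.7 kb for common and 17.6 kb for all regions. Midpoints inside a gene body numbered 262 (53.4%, 48.8 to 57.8), against 49.3% of siControl-only, 51.0% of common and 53.6% of all regions. In 22 of the 262 the nearest gene end belonged to a gene other than the one around the region. Fold hardly varied with position: the medians in replicates 1 and 2 were 6.35 and 5.68 within 1 kb of a gene end and 6.35 and 5.53 beyond 100 kb. Exon and intron boundaries were not used here.

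**Figure D2:**
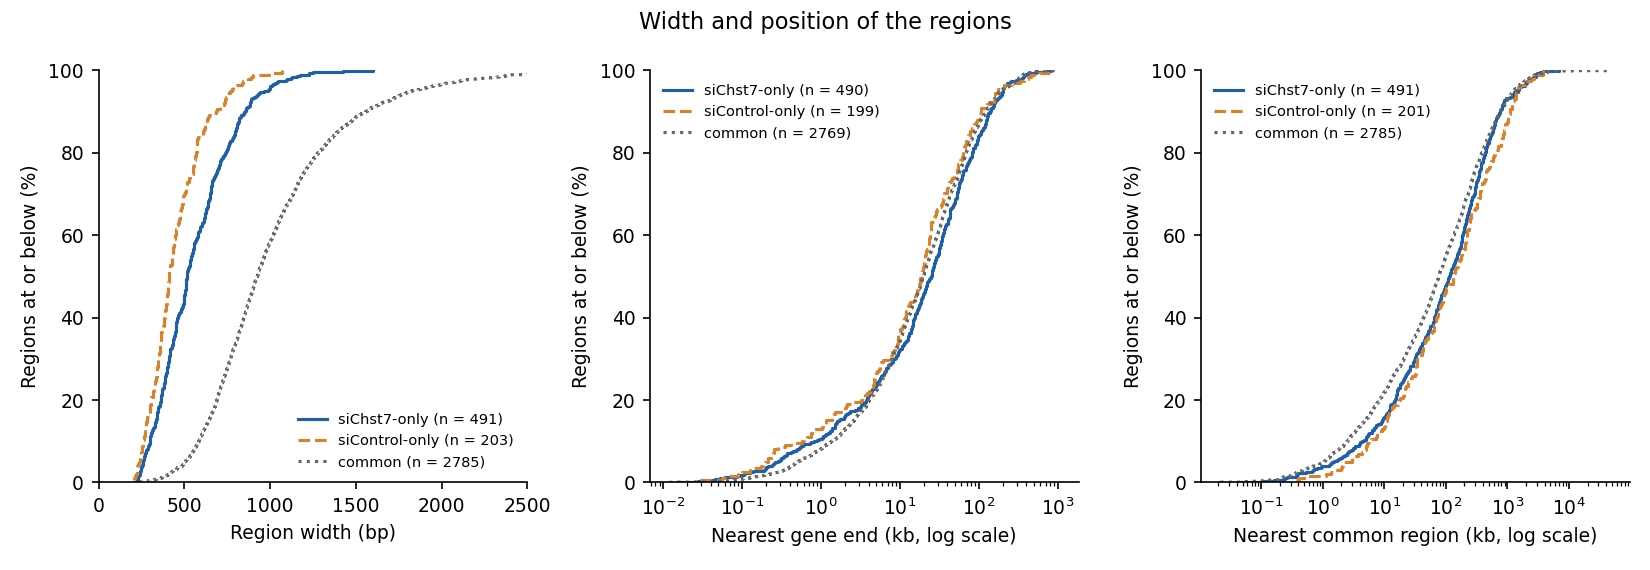
Cumulative share of regions (y, percent) by width in bp (left), distance to the nearest protein-coding gene end in kb (middle, log scale) and distance to the nearest common region in kb (right, log scale) for siChst7-only (blue), siControl-only (orange, dashed) and common regions (grey, dotted). Median widths are 515, 411 and 925 bp, and median distances to a common region are 113, 132 and 76.6 kb.

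Distances to common regions were close to those of all joined regions. The median distance to the nearest common region was 113 kb (quartiles 20.9 and 345), against 132 kb for siControl-only regions, 76.6 kb from one common region to the next and 105 kb over all regions. Within 10 kb were 77 regions (15.7%, exact interval 12.6 to 19.2), against 13.3% (8.95 to 18.8) of siControl-only and 21.9% (20.3 to 23.4) of common and 17.1% of all regions. Within 1 kb were 19, and beyond 1 Mb 33 (6.72%). The nearest lay 47 bp from a common region inside Ptges, the gene of an inducible prostaglandin E synthase (chromosome 2, 30927292 to 30928080). Others lay 109 bp away near Bmper, a BMP-binding secreted protein gene, and 162 bp away inside Msn, the moesin gene. Arid5b, a chromatin regulator gene, and Midn had regions 239 and 240 bp away. The most isolated lay 6979.6 kb from a common region, 2.0 kb from Pkhd1 (chromosome 1, 20619562 to 20620559). Regions near Pi15, Pdgfd, Macc1 and Tenm3 were 3849, 3416.3, 3039.2 and 2917.8 kb away. The region inside Pdgfd, the gene of a PDGF receptor ligand of mesenchymal cells, remained siChst7-only in each of the 5 alternatives to the joining rule described further on.

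The regions ranked 11 to 40 by mean rank in the siChst7 lists had folds of 5.9 to 13.3 in replicate 1 and 5.29 to 10.7 in replicate 2. In 23 of these 30 the fold was higher in replicate 1, and 15 lay inside a gene. The first was 90.5 kb from Pgrmc2 (chromosome 3, 41173242 to 41173797), whose product binds heme, with folds of 13.3 and 6.94. A region 36.5 kb from Map4k3, a kinase gene of stress and nutrient signalling (chromosome 17, 80765121 to 80765501), had 11.5 and 7.57. The region inside Rnf11, a RING ubiquitin ligase gene (chromosome 4, 109458048 to 109459175), had 10.4 and 7.57. It lay 1.3 kb from a common region. A region 1.6 kb inside H3f3b, which encodes the replication-independent histone H3.3 (chromosome 11, 116024242 to 116024703), had 10.96 and 6.94. It covered a start listed by RefSeq, with summits 114 and 144 bases after it. Near Ttc17 (chromosome 2, 94268984 to 94269311) replicate 2 was the higher, at 8.14 and 10.7.

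Several of these regions lay near signalling and cytoskeletal genes. Sema3e, a secreted guidance ligand gene, had a region 17.0 kb away (chromosome 5, 14008126 to 14008512) at 9.36-fold and 8.17-fold enrichment and a further one 50.4 kb away with 7.76 and 4.93. They lay 2861 and 2894.4 kb from the nearest common region. Stard13, which encodes a GTPase-activating protein, held a region 165.8 kb from its ends with folds of 10.1 and 6.73. Lpp, a LIM protein gene of focal adhesions, held 3 regions, of which the best (chromosome 16, 24788302 to 24789528) had 11.5 and 5.49. Phldb2, whose product anchors microtubules at the cell cortex, held 1 with 5.9 and 8.29. Spag9, a scaffold gene of JNK signalling, held 1 with 9.15 and 7.57, and Fzd6, a Wnt receptor gene, had 1 at 5.6 kb with 10.4 and 5.82. Rgl1, which encodes an exchange factor for Ral, held 1 with 10.7 and 5.29.

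Metabolic and protein quality genes were also among them. A region 3.0 kb from Pkm, the pyruvate kinase gene (chromosome 9, 59653185 to 59654002), was enriched 8.14-fold and 9.27-fold, and a further one inside the gene 5.6-fold and 6.46-fold. Prkag3, a subunit gene of the energy sensor AMPK, had a region with its midpoint inside the gene and 45 bp from a gene end (chromosome 1, 74748985 to 74749868) with 9.23 and 8.17. Atg7, needed for autophagosome formation, held a region with 9.66 and 6.59, and Hsp90aa1, a stress-inducible chaperone gene, had one 7.0 kb away with 8.94 and 7.04. A region at the end of the uncharacterised LOC102634078 and inside Nipbl, which encodes a loader of cohesin (chromosome 15, 8445756 to 8446598), had 8.22 and 8.83. Gata3, a zinc finger transcription factor gene, was nearest to regions 123.7 and 375.0 kb away with 9.15 and 6.88 and with 6.92 and 5.49. At these distances the nearest gene need not be the gene a region acts on, and no expression values were at hand.

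**Figure D3:**
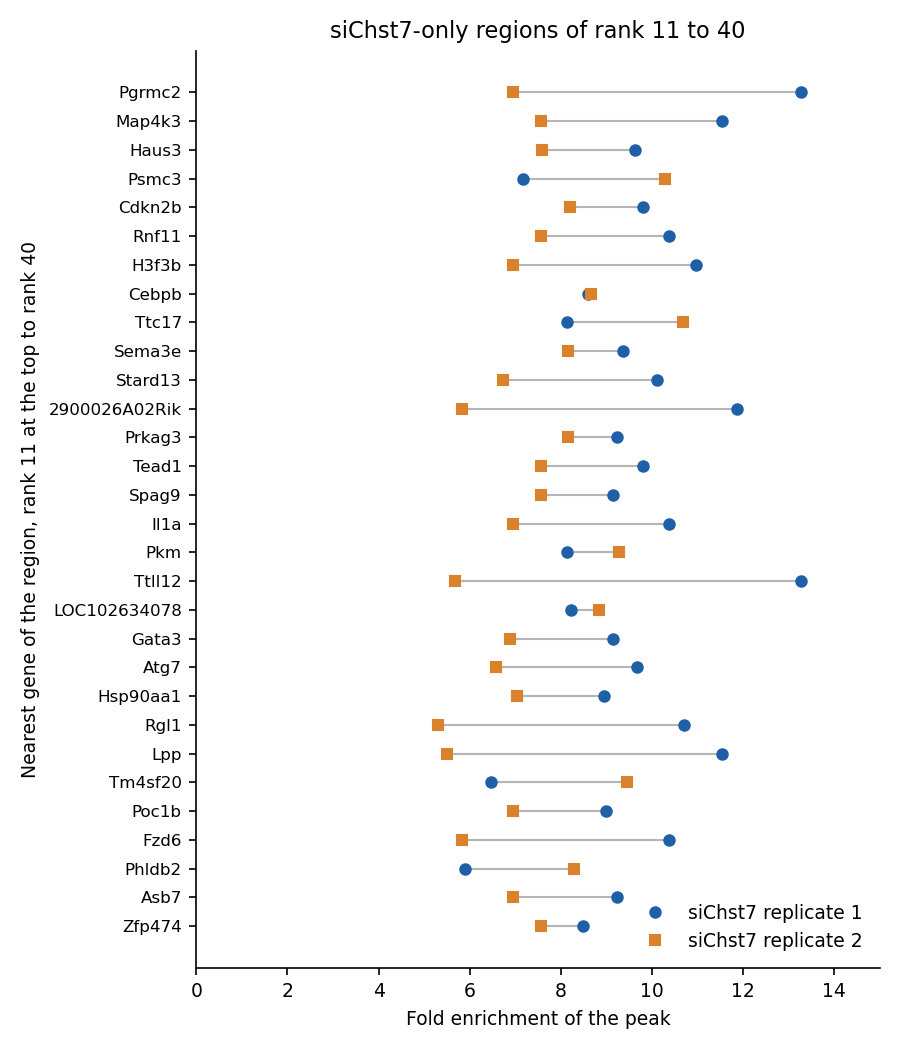
Fold enrichment (x) in siChst7 replicate 1 (blue circles) and siChst7 replicate 2 (orange squares) for the siChst7-only regions of rank 11 (top) to 40 (bottom), each row labelled by the gene with the nearest end. Replicate 1 is the higher in 23 of 30 rows, with Psmc3, Ttc17 and Tm4sf20 among the rows where replicate 2 is.

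Among the regions within 1 kb of a gene end, the best-ranked 12 had folds of 6.61 to 13.3 in replicate 1 and 5.24 to 10.1 in replicate 2. Besides Prkag3 and LOC102634078 they included Ttll12, a tubulin ligase-like gene (chromosome 15, 83574814 to 83575480), with the most unequal pair, 13.3 and 5.68. Sec11c, a signal peptidase gene, had 9.15 and 6.04. Dph3, which serves the modification of elongation factor 2, had 7.12 and 8.2, and the same region touched the window upstream of Oxnad1 on the other strand. Ado, an oxygen-sensing thiol dioxygenase gene, had 7.97 and 6.19. Maml1, a co-activator gene of Notch signalling (chromosome 11, 50292349 to 50293176), had 7.63 and 6.04, and its relatives Maml2 and Maml3 each held a region inside the gene. Zfp474, Klhl30, Izumo4 and Zfp438 were also among the 12. By RefSeq starts, 47 of the 471 regions on chromosomes in the promoter table had their midpoint within 1 kb of a gene start.

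The 412 regions within 100 kb of a gene end belonged to 396 of 21900 protein-coding genes (1.81%). Of these genes, 141 (35.6%) also owned a common region, against 8.32% of all protein-coding genes, and 15 also owned a siControl-only region, against 0.795% of all protein-coding genes. All genes are an unlike background for both shares, because owner genes were picked for having a JUNB region nearby. By region, 15.7% lay within 10 kb of a common region, against 17.1% of all regions. Among the 15 were Jun, Map4k3, S100a11, Arntl, Pax8, Actn4, Foxp1 and Ccn2, so the classes were not exclusive at the level of genes. For 112 genes the siChst7-only region was the only JUNB region in any list, and the matching count for owners of the other classes is not given here.

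No gene owned more than 2 siChst7-only regions and 16 owned 2. Arid5b and Irf2bp2, a transcriptional corepressor gene, had 6 common regions each beside them. Sgk1, a kinase gene induced by serum and glucocorticoids, and Tead1 had 4. Foxl1, a forkhead factor gene of mesenchyme, had none: its regions 22.1 and 3.8 kb away (chromosome 8, 121152579 to 121152842 and 121134051 to 121134847) had folds of 7.51 and 7.57 and of 6.92 and 5.68. Camk2d, the calcium/calmodulin kinase gene best known from heart, held 3 regions inside its body, of which 2 were within 100 kb of an end, with folds of 4.08 to 7.31 in replicate 1 and 4.42 to 5.05 in replicate 2. Prim2, Cxxc5 and Ube4b had 2 and no common region. The other genes with 2 were Ergic1, Gins2, Serpinb1c, Smyd4 and Ywhaz, each with at least 1 common region, and Sema3e and Pkm, with none.

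Of 407 genes in 19 lists for this tissue and treatment, 21 (5.16%) owned a siChst7-only region, against 1.81% of all genes. The lists hold many genes near which common regions also gather, and the lists were chosen with earlier results of these data known. Genes owning a siControl-only region, 0.795% of all genes, are counted beside several groups below. The 22 regions concerned had folds of 2.68 to 12.7 in replicate 1 and 2.64 to 7.57 in replicate 2. Gene groups are shown in the plot of gene shares with their counts.

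TGF-beta and myofibroblast genes gave 4 of 26 (15.4%), while 10 of the 26 owned a common region and 3 a siControl-only region. Itgav, an integrin subunit gene that takes part in releasing latent TGF-beta, held a region (chromosome 2, 83744484 to 83745013) with folds of 6.14 and 6.73. Tgfb2, a ligand gene, had one 54.3 kb away (chromosome 1, 186568290 to 186568761) with 7.35 and 5.68. Itgb5, a partner of Itgav, held one with 6.81 and 4.88. Ccn2, which encodes connective tissue growth factor, had one at its end (chromosome 10, 24595244 to 24595762) with 3.75 and 4.94, the lowest replicate 1 fold among the regions within 1 kb of a gene end. Ccn2 also stood in the Hippo list, where it and Tead1, a DNA-binding partner of YAP, made 2 of 16 (12.5%). Of these 16 genes, 6 owned a common and 1 a siControl-only region. The Tead1 regions had folds of 9.81 and 7.57 at 33.5 kb (chromosome 7, 112645497 to 112646188) and of 4.04 and 5.05 within 1 kb of the gene end.

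AP-1 family genes gave 3 of 16 (18.8%), with a common region at 9 of the 16 and a siControl-only region at 1. Beside the region near Jun, which had folds of 12.7 and 7.13, these were regions 10.5 kb from Atf3 (chromosome 1, 191193502 to 191194177) with 6.35 and 5.68 and 0.354 kb from Mafk with 4.85 and 5.54. Atf3 is a stress-induced family member, and Mafk is a small Maf protein that lacks an activation domain. The Mafk summits lay 236 and 274 bases before the gene start printed above, and a common region was 1.5 kb away. Inflammatory genes gave 3 of 24 (12.5%), with a common region at 8 of the 24 and a siControl-only region at 0. Il1a, an alarm cytokine gene with no common region, had one 21.1 kb away (chromosome 2, 129330847 to 129331691) with 10.4 and 6.94. Nfkb1, which encodes the NF-kB subunit p50, had one 20.1 kb away with 5.19 and 6.31, and the third was near Ccl2.

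Matrix and proteoglycan genes gave 1 or 2 genes a list. Fibroblast identity genes gave 2 of 34 (5.88%), a region 14.0 kb from Zeb2, a mesenchymal transcription factor gene (chromosome 2, 44969287 to 44969782), with 8.65 and 6.63, and one 77.4 kb from the collagen gene Col5a2 with 6.22 and 6.77. Of these 34 genes, 13 owned a common and 2 a siControl-only region. Proteoglycan core protein genes gave 2 of 20, Sdc3 with 5.77 and 5.05 and Gpc4 with the low folds named above. Of 39 genes of glycosaminoglycan sulfation and assembly, the group of Chst7, only Sulf1, which trims sulfate from heparan sulfate outside the cell, owned one, with 5.66 and 4.84. Outside that list, Chpf2, a chondroitin polymerising factor gene, had one within 1 kb of its end (chromosome 5, 24586806 to 24587660) with 7.88 and 4.4. Mmp14, a membrane-bound matrix metalloproteinase gene, was 1 of 16 protease genes, with 5.19 and 6.31. Actin and adhesion genes gave 2 of 36, Myh10 and Actn4.

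In the cardiac lists 1 gene owned a siChst7-only region. Cardiac transcription factor genes gave 1 of 24 (4.17%), Hand2, with a region 59.5 kb away (chromosome 8, 57383890 to 57384131) that had folds of 7.5 and 6.31. A region 417.4 kb from Isl1, a gene of cardiac progenitors, had 8.65 and 6.94 and was too far out to be counted. Of 31 listed genes for sarcomere, conduction and calcium handling in cardiomyocytes, 0 owned one, and 5 owned a common region. That list did not hold Camk2d, Acta1 or Pdlim5, which owned siChst7-only regions described in other paragraphs, so the 0 covers the listed genes only. The list of immediate-early genes with feedback genes of the MAPK pathway stood at 0 of 22, while 12 of these owned a common region. Regions 203.5 kb from Klf4 and 228.8 kb from Spry2, both of that list, were too far out to be counted. Listed cell cycle genes gave 0 of 25 and listed Wnt, Fgf and Bmp genes 0 of 34. Wider families defined by gene symbol did hold owners. The Wnt family gave 2 of 59, Fzd6 and Rspo2, and the TGF-beta, Bmp and Smad family 2 of 69, Tgfb2 and Bmper. Markers of other cell types gave 0 of 12 endothelial, 0 of 11 macrophage, 0 of 10 epithelial and 0 of 9 neuronal genes. In lists this short, 0 is near the 1.81% of all genes. A common region was owned by 6 of the 12 endothelial and 3 of the 10 epithelial genes, and by 0 macrophage and 0 neuronal genes. A siControl-only region was owned by 3 of the 11 macrophage genes and by 0 genes of the other 3 lists. Of 9 smooth muscle genes 1 owned a region, Cald1, whose product caldesmon restrains actomyosin and is also made in fibroblasts. Its region covered a gene start (chromosome 6, 34598115 to 34598752) with 8.08 and 5.05.

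**Figure D4:**
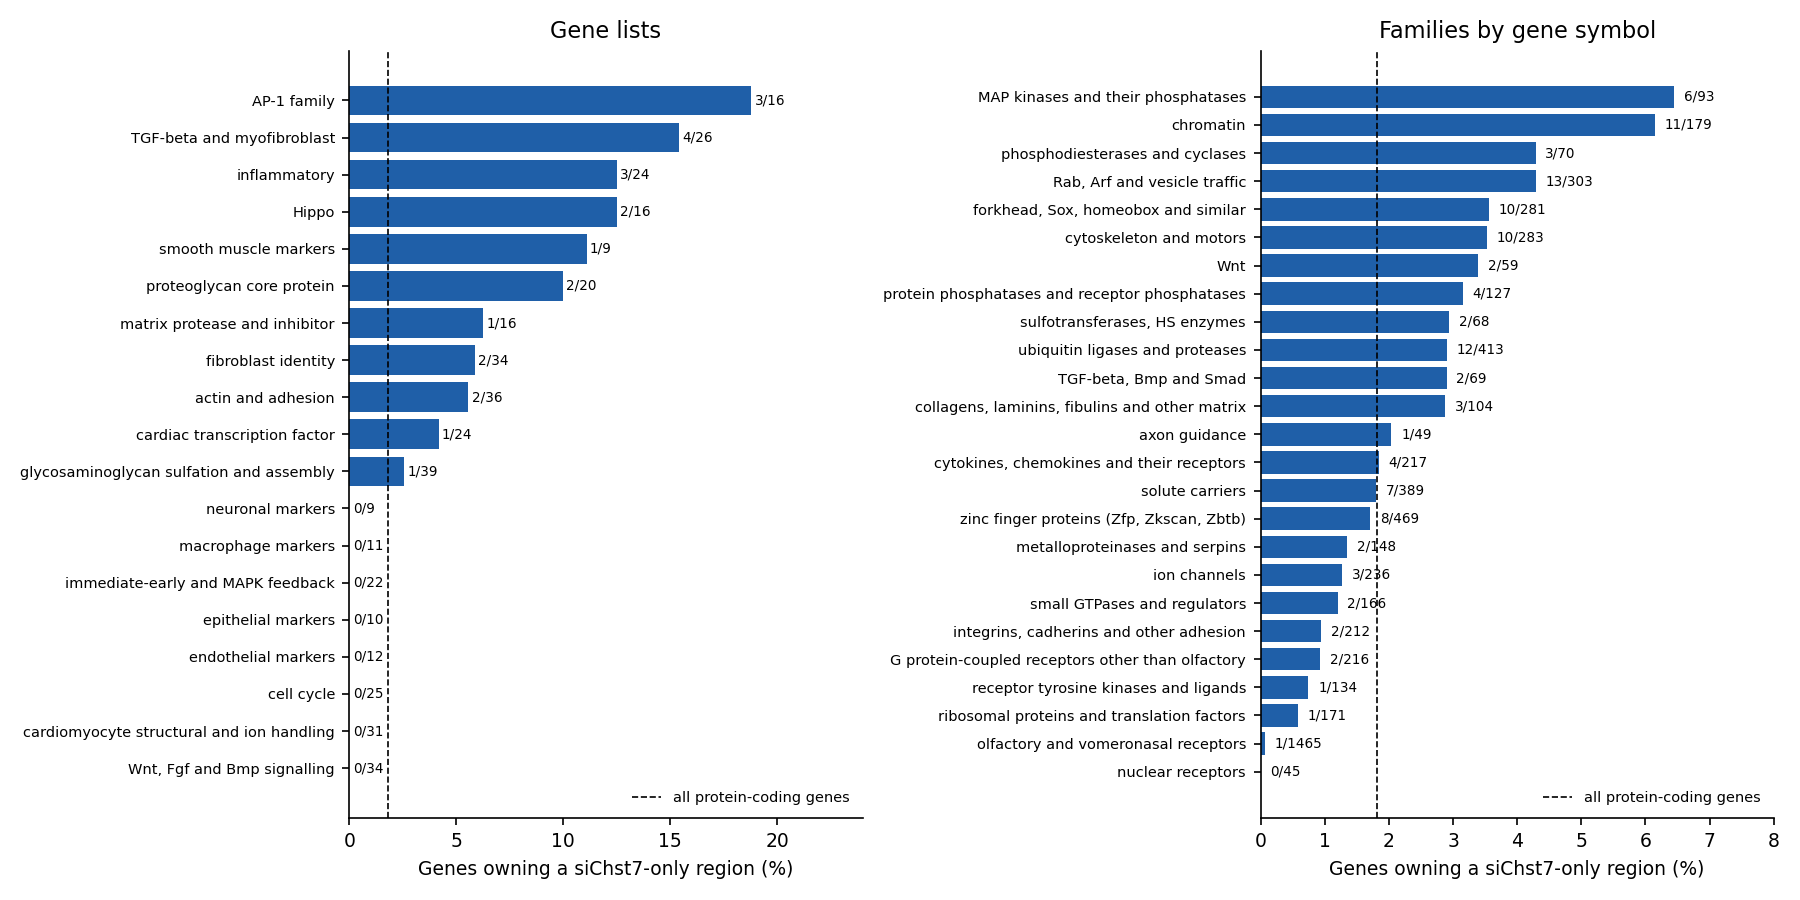
Share of genes (x, percent, with the counts beside the bars) that own a siChst7-only region, for 19 gene lists (left) and 25 families defined by gene symbol (right); the dashed line is the 1.81% of all protein-coding genes. AP-1 genes stand at 18.8% on 3 genes and the family of MAP kinase and phosphatase symbols at 6.45% on 6, and 8 lists and 1 family stand at 0.

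Families defined by gene symbol over the whole genome gave shares from 0 to 6.45%. The highest belonged to MAP kinases and their phosphatases, with 6 of 93 genes. These were Map4k3, Dusp8, a phosphatase gene of JNK and p38, Mapkapk2, the kinase gene downstream of p38, Map3k20, Map3k7cl and Mapkap1, a subunit gene of mTORC2. Membership went by symbol, so the share and its first place rest partly on genes that are not MAP kinases, such as Mapkap1. Of the 93 genes, 20 owned a common and 2 a siControl-only region. The Mapkapk2 region had folds of 6.35 and 6.31 and the Map3k20 region 6.35 and 6.31. Chromatin genes followed with 11 of 179 (6.15%), with a common region at 19 of the 179 and a siControl-only region at 1. Hdac4, a histone deacetylase gene that restrains MEF2 factors, had a region 19.8 kb away (chromosome 1, 92215162 to 92215929) with 8.65 and 6.94. Cbx5, the gene of heterochromatin protein HP1 alpha, held one with 7.14 and 6.94, and Kmt2a, a histone H3 lysine 4 methyltransferase gene, one with 8.63 and 4.48. Phf20, Arid5b, Kdm5a, Brd2, Phf2 and Hdac9 were also among them.

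The family of vesicle traffic symbols gave 13 of 303 (4.29%), with a common region at 31 of the 303 and a siControl-only region at 4. Membership went by symbol here too, and the 13 include Sec11c, the signal peptidase gene named above. Among the 13 were Vps26c and the ESCRT-I gene Vps37c near the top of the ranking. The COPII coat genes Sec24d, with 6.35 and 5.68, and Sec24b, with 5.11 and 5.05, were also among them. Cytoskeleton and motor genes gave 10 of 283 (3.53%), with a common region at 38 of the 283 and a siControl-only region at 6. A region 21.0 kb from Actb, the beta-actin gene (chromosome 5, 142928805 to 142929198), had 8.98 and 6.46, one 8.1 kb from Acta1 had 6.48 and 5.82, and one inside Pdlim5, a Z-disc protein gene, had 5.77 and 7.57. The family of forkhead, Sox, Klf, Tbx, homeobox and similar symbols gave 10 of 281 (3.56%). A common region was owned by 33 of the 281 and a siControl-only region by 4. Among the 10 were Sox9, a factor of cartilage and fibrosis, with 5.77 and 5.05 at 63.1 kb, and Meis2 with 6.04 and 6.31. The corepressor gene Irf2bp2 was also counted there by its symbol. Ubiquitin ligases and proteases gave 12 of 413 (2.91%). Solute carriers (7 of 389), zinc finger proteins (8 of 469) and cytokines and their receptors (4 of 217) were near the share of all genes. Integrins, cadherins and other adhesion genes gave 2 of 212 and receptor tyrosine kinases and ligands 1 of 134. Olfactory and vomeronasal receptors gave 1 of 1465 and nuclear receptors 0 of 45. The other 12 families, with the Wnt and TGF-beta families among them, stood between 0.585% and 4.29%. Of the 396 owner genes 285 were in no family, and no test of any group was made.

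The regions were spread over all autosomes and chromosome X. They made up from 2.44% of joined regions on chromosome 12 (13 of 533, exact interval 1.3 to 4.13) to 5.41% on chromosome 16 (26 of 481, 3.56 to 7.82). The intervals of all 20 chromosomes held the overall 3.88%. Chromosome 1 had the most regions, 47, and chromosome X had 5 of 156. Within 100 kb of another siChst7-only region were 65, and within 10 kb were 10, such as the Pkm, Ube4b, Gins2 and Smyd4 regions named above and regions 128.5 and 129.3 kb from Cdkn2b, a cyclin-dependent kinase inhibitor gene, that lay side by side on chromosome 4.

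**Figure D5:**
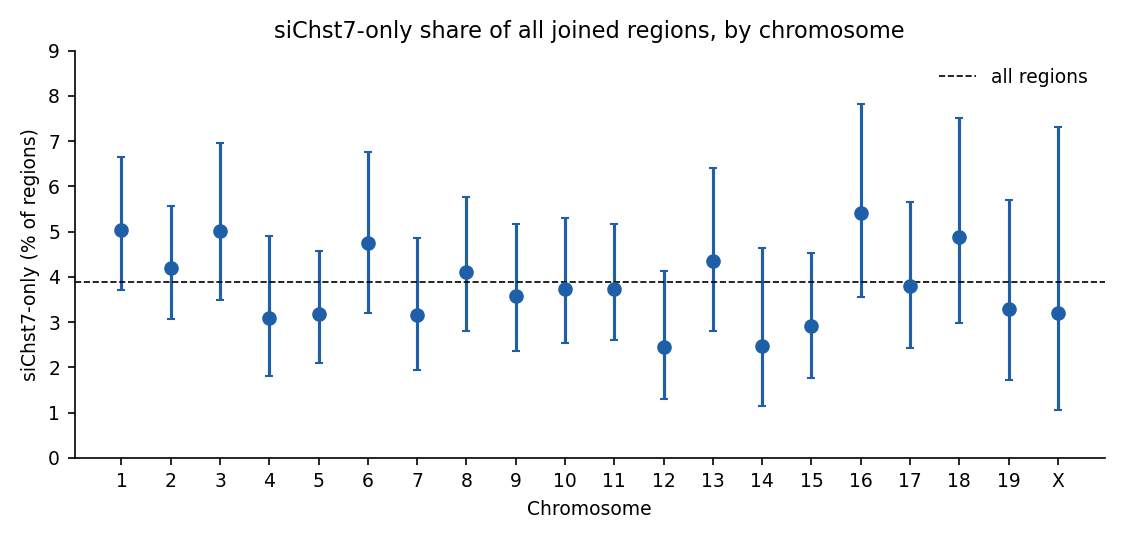
Share of joined regions that were siChst7-only (y, percent) on each of chromosomes 1 to 19 and X (x), with 95% exact binomial intervals; the dashed line is 3.88% over all regions. Values run from 2.44% on chromosome 12 to 5.41% on chromosome 16 and every interval crosses the line.

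The regions differed in how many of 5 alternatives to the rule they passed. The region remained siChst7-only for 285 of 491 under 50% reciprocal overlap, 373 with summits widened by 100 bp on each side, 411 at a q of at most 0.001, 325 at a fold of at least 5 and 184 at equal list length. In all 5 of these it remained for 65 (13.2%) and in none for 6. Each of the 491 overlaps no siControl peak, and apart from the summit windows these alternatives only drop or separate peaks. Whether a region remained there was thus set by its siChst7 peaks, and absence from the siControl lists was not tested. The fold of at least 5 also set the floor for the folds of these 65. The 65 had folds of 6.14 to 14.7 in replicate 1 and 5.05 to 10.7 in replicate 2 and a median width of 478 bp, and 28 lay inside a gene. By rank they began with the regions nearest to Rai14, Tmco5, Galntl6, Tmem41b, Vps37c, Jun, Map4k3, H3f3b, Cebpb, Ttc17 and Sema3e. Of the genes in the lists, Jun, Zeb2 and Hand2 were among them, as was the Tead1 region at 33.5 kb. The Tgfb2, Itgav, Itgb5, Atf3, Ccl2, Nfkb1, Mafk and Ccn2 regions were each lost in at least 1 of the 5.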

How the data were processed

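Of 7 libraries, the JUNB peak lists of 4 were used, 2 for siChst7 and 2 for siControl, matched to libraries by their peak names. Bowtie2, MACS3 and the mm10 build are named in the submitters' processing notes without versions; the use of IgG as a control was not stated there. Per the deposited lists, each peak has a fold enrichment (a ratio) and p- and q-values as −log10, with the lowest −log10 q near 2. The labels state 30 M reads a library. Depth per library is unknown here, and absence from a list means only that no peak passed its threshold.

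Peaks overlapping by 1 bp were joined. Genes are RefSeq protein-coding genes of GRCm38.p6. A region's gene is the one with the end nearest to its midpoint, and that gene owns the region within 100 kb. Coordinates are 1-based. The members, gene lists and families were chosen with earlier results of these data known. The named regions were ranks 11 to 40 by mean rank on −log10 q, the best 12 within 1 kb of a gene end, the extremes, and the regions of listed genes and families. The 6 printed promoters, Chpf2 and the other regions named in passing were chosen after their values were seen. A few regions that these rules name are not reported here. No test was made, since the peak calls of all 4 libraries chose the regions and regions are not replicates. Intervals are 95% Clopper-Pearson. The joining and distance steps were tested on simulated peak lists. Matplotlib 3.10.9 drew the figures, and the values came from pandas 2.3.3, SciPy 1.17.1 and NumPy 2.4.6 under Python 3.11.15.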

Additional observations from a re-analysis of the deposited data

How the results depend on the processing

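The number of siChst7-only regions was 331 to 538 over the alternatives that kept all 4 libraries, within 1.5 times of 491. These totals include regions outside the 491. Under 50% reciprocal overlap 285 of the 491 remained in a total of 453, and at equal list length 184 remained in a total of 331. The median width was 499 bp under 50% reciprocal overlap, 260 bp with summit windows (whose width the alternative itself sets), 567 bp at a fold of at least 5 and 641 bp at equal list length, against 515 bp. The median distance to a common region was 187, 155, 149 and 155 kb under these, against 113 kb. With a gene-end window of 2.5 kb the share at gene ends was 17.3%, and with genes assigned within 20 kb 220 genes owned a region, 11 of them in the lists. Leaving out 1 library loosens the rule by construction: the regions then numbered 771 (without siControl replicate 2) to 4204 (without siChst7 replicate 2), their owner genes 606 to 2760, their median width 285 to 557 bp and their median distance to a common region 79.8 to 104 kb. Without siChst7 replicate 1 there were 989 regions and without siControl replicate 1 there were 953. The causes of these changes in width and distance, where the rule does not set them, were not tested. The shares at gene ends (1 kb window) and inside genes stayed within their intervals in every alternative run. No paired analysis was possible because the regions are defined by calls in both siChst7 lists and in neither siControl list, and no result comes from a test. A peak list holds no value for a place without a peak, so signal below the threshold cannot be seen.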
